A study of Mus musculus with 33 samples.

Results

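Sectm1a, Selm, Inpp5j, Clic5, Itpka and Rmi2 are 6 mouse genes of unlike function that were picked for large increases in tumour inflammatory monocytes after radiotherapy or after radiotherapy with interleukin 12 (IL-12), and for not being classical interferon-induced GTPases. They are 6 of the 53735 gene names in each of 9 tables of fold changes. The members were chosen by their fold changes in monocytes after either of those treatments, so those values are given as a description and carry no test. Their values in macrophages and CD8 T cells had no part in the choice, and the tests are on these.

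The 6 proteins act in separate places in the cell. Sectm1a encodes a small immunoglobulin-like protein of the cell surface, and its human counterpart SECTM1 is known as a secreted and membrane-bound ligand of CD7. Inpp5j encodes a lipid phosphatase that removes a phosphate from the inositol ring of phosphoinositides, among them the lipid made by PI3-kinase. Itpka encodes a kinase that phosphorylates soluble inositol trisphosphate, the messenger that opens calcium channels of the endoplasmic reticulum, and it also bundles actin. Selm is the older symbol of Selenom, which encodes selenoprotein M, a redox protein of the endoplasmic reticulum that carries selenocysteine. Clic5 encodes a member of the chloride intracellular channel family that is tied to the actin cortex through ezrin. Rmi2 encodes a subunit of the complex of BLM helicase, topoisomerase TOP3A, RMI1 and RMI2, which resolves joined DNA molecules after recombination.

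RNA was sequenced from cells sorted from orthotopic pancreatic tumours, grown from KCKO cells injected into the pancreatic tail of C57BL/6 mice. The tumours came from 4 treatments. Combination tumours received stereotactic body radiotherapy (SBRT) of 6 Gy in each of 4 fractions on days 6 to 9 and, on day 10, an intratumoral injection of 2 mg of microspheres carrying 0.5 ug of recombinant IL-12. SBRT tumours received the radiation, IL-12 tumours the IL-12 microspheres, and unirradiated tumours neither. Empty microspheres served as an injection control, but the labels do not say which groups received them, and age and day of harvest are not given in the sources used here. Inflammatory monocytes (IM) were sorted as CD45+CD11b+Ly6C+Ly6G- cells. The gate for tumour-associated macrophages (TAM) was CD45+CD11b+Ly6CmodLy6G-F480+, and that for CD8 T cells (CD8) was CD45+CD8+. IM and CD8 had 3 libraries in each group. For TAM there were 3 libraries after IL-12 and 2 each after the combination, after SBRT and without treatment. The labels do not say that libraries of a group came from separate mice, nor whether libraries of different populations share tumours. A p-value here therefore reflects only how far these libraries vary, which may be technical.

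In each of the authors' deposited tables, cells from treated tumours are set against the same population from unirradiated tumours. Per gene the table gives 1 mean normalised level over all libraries of the population, a shrunken log2 fold change, and a DESeq2 Wald test with its adjusted p. They hold no value per library, so no spread of a level within a group can be shown, and depth per library is unknown. A gene is said to have risen or fallen where its adjusted p was below 0.05. The figure after ± is the standard error implied by the fold change and its Wald statistic. The sorts carried their defining genes: the 9 monocyte identity genes had a median level of 24339 in IM, the 8 macrophage genes 88221 in TAM and the 8 CD8 T-cell genes 32938 in CD8. IM also carried macrophage genes at a median level of 26417, so the monocyte and macrophage sorts overlap in expression. The 8 CD8 T-cell genes had a median of 204 in IM and 205 in TAM, with none at 0. In CD8 the 8 macrophage genes had a median of 705.

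The genes lie at 5 places in the genome (build GRCm38, GENCODE M21), all as protein-coding genes. Inpp5j (chr11:3494375-3504821, minus strand) and Selm (chr11:3514684-3517351, plus strand) are neighbours that are transcribed away from each other, with 9862 bases between them. Sectm1a lies elsewhere on the same chromosome (chr11:121067407-121081220, minus strand). Clic5 is at chr17:44188584-44280172 (plus strand), Itpka at chr2:119742337-119751263 (plus strand) and Rmi2 at chr16:10835059-10892966 (plus strand). RefSeq promoters (build GRCm38.p6) were matched for 3 of the 6 genes, Selm, Clic5 and Itpka. The 250 bases before each start were searched on both strands for the STAT motif GAS (TTCNNNGAA), the interferon-response motif ISRE (GAAA, any 2 bases, GAAA) and the ETS-IRF composite (GGAA, any 2 bases, GAAA). Of 32851 promoters searched over the same length, 7.02% held the first, 2.98% the interferon-response motif and 2.30% the composite. Itpka alone among the 3 held any: its promoter has a GAS match 128 to 120 bases before the start, and an ISRE match 122 to 113 bases before it that shares 3 letters with the GAS match. The Selm and Clic5 windows held none of the 3 motifs. The Itpka promoter is shown whole because it is the single match among the 3 promoters searched, and a 56-base stretch of the Socs1 promoter beside it because Socs1 is the neighbour of Rmi2 that is described further on. Capitals mark the joined motif matches, which in Socs1 are 2 overlapping ISRE matches, 83 to 74 and 77 to 68 bases before the start.
Itpka, chr2:119742087-119742336, plus strand: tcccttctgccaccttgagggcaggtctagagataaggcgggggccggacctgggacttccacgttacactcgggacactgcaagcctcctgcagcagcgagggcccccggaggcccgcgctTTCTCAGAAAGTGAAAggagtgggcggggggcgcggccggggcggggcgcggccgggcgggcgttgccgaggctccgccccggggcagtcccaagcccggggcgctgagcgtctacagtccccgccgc
Socs1, chr16:10785584-10785639, minus strand: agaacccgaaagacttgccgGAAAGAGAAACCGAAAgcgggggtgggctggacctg
These matches describe letters in the window and say nothing about binding.

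Levels differed among the 6 genes and between the myeloid and the T-cell sorts. On the scale of mean normalised level per kb of exon, Sectm1a stood at 1239 in IM, 1635 in TAM and 17.4 in CD8. Selm stood at 1184 in IM, 1816 in TAM and 100.0 in CD8. Both were therefore among the better expressed genes of the myeloid sorts, with 86.6% and 86.1% of 13572 expressed genes (those with an adjusted p and an exon length) below them in IM. Inpp5j followed with a level per kb of 358 in IM, 482 in TAM and 6.19 in CD8. Rmi2, at 93.9, 89.8 and 175 per kb in IM, TAM and CD8, and Clic5, at 89.7, 82.3 and 2.40, lay under the median of expressed genes, which was 163 per kb in IM and 164 in TAM. Itpka was the lowest in IM at 47.1 per kb, with 27.9 in TAM and 8.16 in CD8. Rmi2 was the only 1 of the 6 whose level per kb was higher in CD8 than in IM. Levels were normalised within each population, so this order between populations was not tested. The paralogue Sectm1b, next to Sectm1a, had a mean level of 1.67 in IM and 0.915 in TAM, against 2097 and 2767 for Sectm1a.

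**Figure D1:**
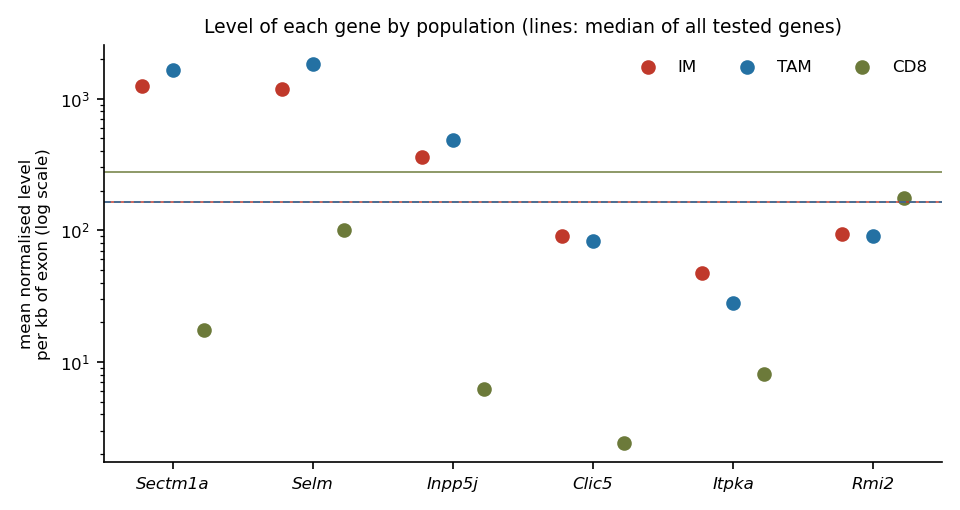
Mean normalised level per kb of exon (log scale) of each of the 6 genes in IM, TAM and CD8 libraries, with lines at the median of all expressed genes of each population. Sectm1a and Selm have the highest levels in IM and TAM, and 5 of the 6 genes are lowest in CD8, while Rmi2 is highest there.

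In IM, the contrast that chose them, all 6 genes were called higher after the combination in the authors' deposited table, where 3.69% of 18660 tested genes were. Selm was 4.03-fold higher than in unirradiated tumours (log2 fold change 2.01 ± 0.16), Sectm1a 3.99-fold (1.99 ± 0.18) and Inpp5j 3.69-fold (1.88 ± 0.21). Clic5 was 2.92-fold higher (1.55 ± 0.20), Rmi2 2.43-fold (1.28 ± 0.21) and Itpka 1.93-fold (0.95 ± 0.22). Among the 688 genes called higher they took positions 4, 5, 9, 21, 42 and 113 by fold change, so the selection runs from the top of the order to well inside it. Il12rb1, a chain of the IL-12 receptor, stood just above Selm at 2.03, and the GTPase gene Gbp2b just below Inpp5j at 1.87. C1ra and Serpina3n stood on either side of Itpka, each at 0.95.

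After SBRT alone, 4 of the 6 were called higher in IM, where 0.379% of 19273 tested genes were, and these values too served the choice. Sectm1a had the highest fold change of all tested genes (log2 1.13 ± 0.18), Itpka came next (1.07 ± 0.23) and Rmi2 was at position 4 (0.99 ± 0.20). Selm was called at 0.61 ± 0.16, position 89. Inpp5j, with 0.66 ± 0.20, and Clic5, with 0.35 ± 0.19 and position 618, were not called. Sectm1a, Itpka and Rmi2 thus stood near the top after radiation alone, and Inpp5j, Selm and Clic5 further down.

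IL-12 alone was not named in the choice, but its IM comparison uses the same unirradiated libraries as the others, so its values are given beside them and not as separate evidence. Of the 6 genes, 5 were called higher in it, where 1.91% of 16829 tested genes were. Selm had a log2 fold change of 1.30 ± 0.16, Sectm1a 1.22 ± 0.18, Rmi2 1.19 ± 0.21, Inpp5j 1.08 ± 0.20 and Clic5 0.91 ± 0.20. Itpka was the exception at 0.25 ± 0.20.

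The members thus had unlike profiles over the 3 treatments in IM. Selm, Inpp5j and Clic5 had larger fold changes after IL-12 than after SBRT, and the combination values lay near the sum of the single ones: combination minus both single effects was 0.09 ± 0.28 for Selm, 0.08 ± 0.35 for Inpp5j and 0.26 ± 0.34 for Clic5. Sectm1a had like values after SBRT and IL-12 and a combination value under their sum on the log2 scale (-0.38 ± 0.30). Rmi2 had similar fold changes after all 3 treatments, and its combination value was furthest from the sum (-0.92 ± 0.36). Itpka had a larger value after SBRT than after IL-12: SBRT minus IL-12 was 0.77 ± 0.31, and combination minus SBRT was -0.10 ± 0.31. The choice used values after SBRT and not after IL-12, which by itself favours such a difference. Since these fold changes chose the genes, the differences in IM carry no test, and their standard errors leave out the controls that the comparisons share, which makes them too wide.

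**Figure D2:**
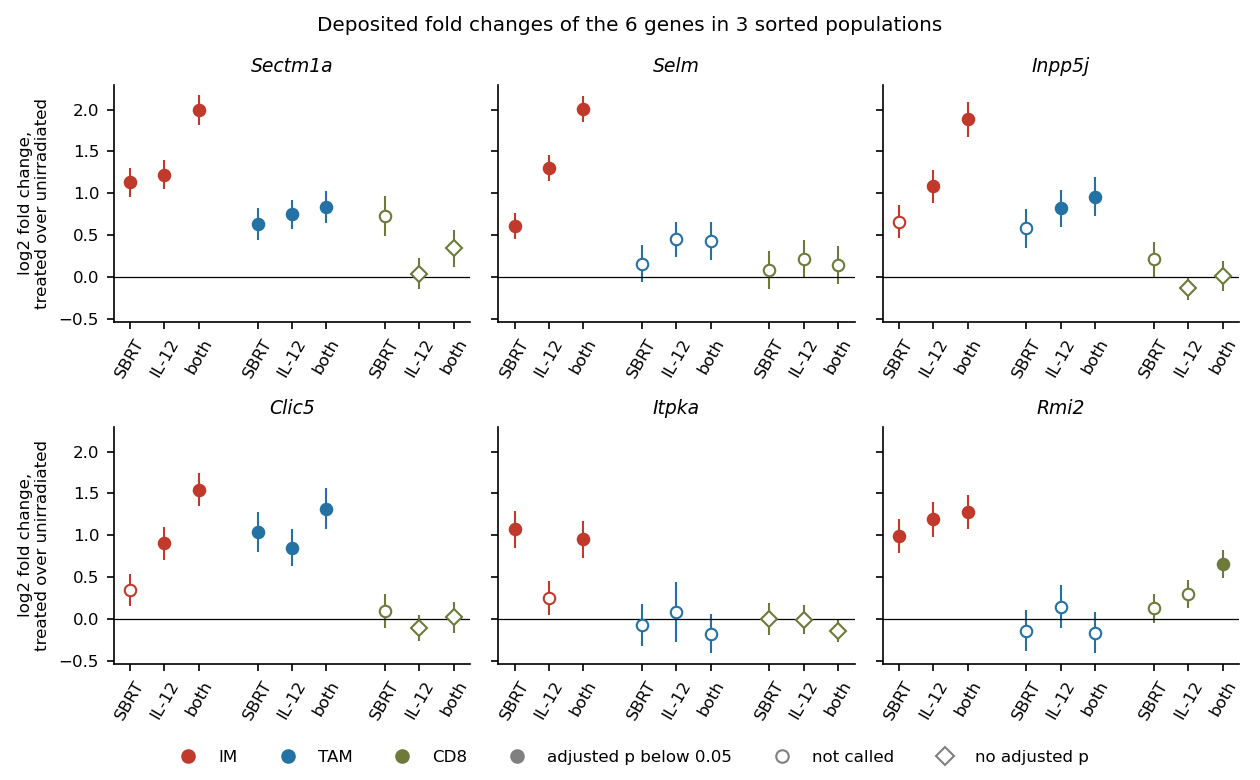
Log2 fold change (treated over unirradiated) from the deposited tables for each gene after SBRT, IL-12 or both, in IM, TAM and CD8; bars are the implied standard error, filled circles mark an adjusted p below 0.05, open circles a gene not called and diamonds a gene without an adjusted p. In IM the values of Selm, Inpp5j and Clic5 climb from SBRT through IL-12 to both, Rmi2 is nearly level and Itpka is low after IL-12; in TAM only Sectm1a, Inpp5j and Clic5 have filled points, and in CD8 only Rmi2 after both.

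In TAM, which the choice did not use, Clic5, Inpp5j and Sectm1a rose and the other 3 genes were not called after any treatment. After the combination 3 of 6 rose, where 2.24% of 17224 tested genes did. Clic5, the actin-linked chloride channel family gene, was 2.49-fold higher in the authors' deposited table (log2 1.32 ± 0.25, adjusted p = 2.2e-05). Inpp5j, the phosphoinositide phosphatase gene, was 1.95-fold higher (0.96 ± 0.23, adjusted p = 0.0030). Sectm1a, the surface ligand gene, was 1.79-fold higher (0.84 ± 0.19, adjusted p = 0.0012). Selm (0.43 ± 0.22, adjusted p = 0.37), Itpka (-0.18 ± 0.23, adjusted p = 0.87) and Rmi2 (-0.17 ± 0.24, adjusted p = 0.89) were not called.

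The single treatments gave the same 3 genes or fewer in TAM. After IL-12, 3 of 6 rose where 0.651% of 19042 tested genes did: Clic5 (log2 0.85 ± 0.22, adjusted p = 0.017), Inpp5j (0.82 ± 0.22, adjusted p = 0.026) and Sectm1a (0.75 ± 0.18, adjusted p = 0.0067). After SBRT, 2 of 6 rose where 0.933% of 18436 tested genes did. Clic5 was 2.05-fold higher (log2 1.04 ± 0.24, adjusted p = 0.0024), and Sectm1a 1.55-fold (0.63 ± 0.19, adjusted p = 0.049). The Sectm1a call after SBRT was lost without the authors' filter on level (adjusted p = 0.085) and with the spread of the statistics taken from the data (adjusted p = 0.069). Inpp5j had a like value after SBRT (0.58 ± 0.23) that was not called (adjusted p = 0.23). Selm, Itpka and Rmi2 lay between -0.14 and 0.45 after the single treatments in TAM.

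The order of the genes in TAM thus differed from that in IM. Clic5, which had the lowest fold change of the 6 in IM after SBRT, had the highest in TAM after each treatment. Selm, Itpka and Rmi2, each called in IM after the combination, had TAM values with adjusted p of 0.37 or more in that comparison, at mean levels of 2689, 50.7 and 404. The difference between IM and TAM was not tested, because the IM values chose the genes.

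In CD8 cells 4 of the 6 genes were near the lower end of detection, and Rmi2 was the only 1 called. Mean levels were 29.4 for Sectm1a, 31.5 for Inpp5j, 21.1 for Clic5 and 14.8 for Itpka, and the authors' level filter left these 4 without an adjusted p after IL-12 and after the combination. The shrinkage of the deposited fold changes also pulls such genes toward 0. A value near 0 in them therefore does not show that a change was absent. Selm (level 148) had log2 fold changes between 0.08 and 0.21 in the 3 CD8 tables, none of them called. Sectm1a had 0.73 ± 0.24 in CD8 after SBRT (adjusted p = 0.16), the highest value of the 6 there. The 8 macrophage genes had a median level of 705 in CD8, against 88221 in TAM, where the Sectm1a level was 2767. The part of macrophage RNA in the CD8 value of Sectm1a was not tested. Itpka had no adjusted p after SBRT either. None of the 5 genes with an adjusted p was called there by the authors' DESeq2 test, where 0.306% of 16359 tested genes rose. Sectm1a was also the 1 gene of 6 with an unadjusted p below 0.05 in that table.

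Rmi2 rose 1.58-fold in CD8 cells after the combination (log2 0.66 ± 0.17, adjusted p = 0.0036 in the authors' deposited table), 1 of the 2 genes tested, where 4.51% of 15115 tested genes rose. After IL-12 it had 0.30 ± 0.17 (adjusted p = 0.42) and after SBRT 0.12 ± 0.17 (adjusted p = 0.83), and 1.48% of 13876 tested genes rose after IL-12. The call was lost when the spread of the statistics was taken from the data (adjusted p = 0.19). Its partner in the dissolving complex, Blm, rose as well (0.77 ± 0.17, adjusted p = 4.5e-04), while Top3a (0.11 ± 0.14) and Rmi1 (-0.12 ± 0.15) were not called. The same libraries carried more cell-cycle transcripts: 17 of 18 cell-cycle genes rose after the combination (median log2 fold change 0.85, against -0.027 over all tested genes), 13 of 18 after IL-12 and 1 of 18 after SBRT. The part of cell division in the Rmi2 result was not tested.

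**Figure D3:**
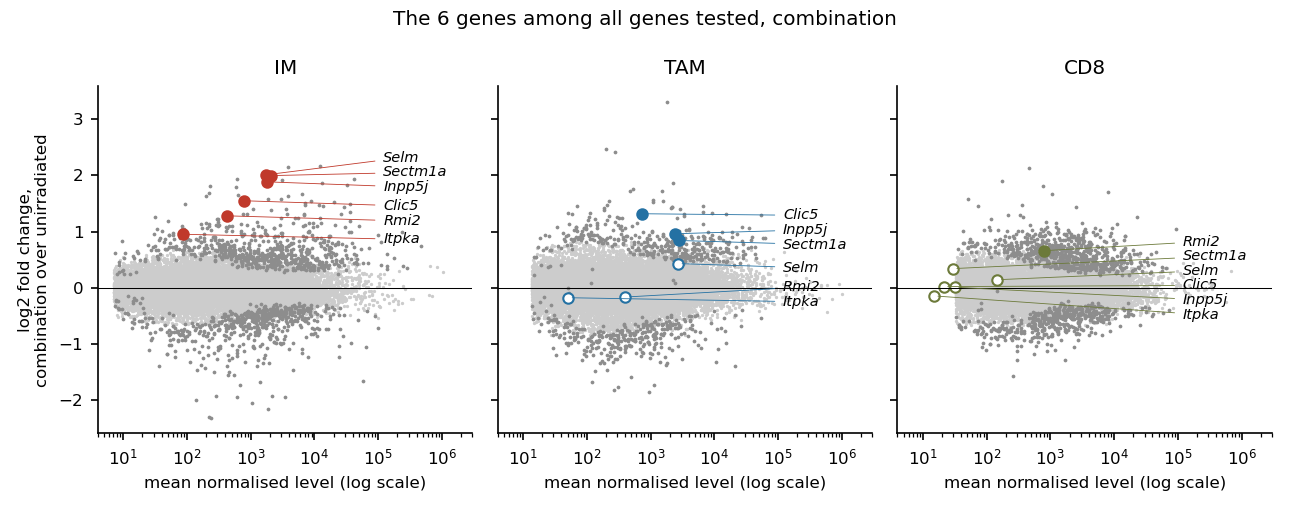
Log2 fold change (combination over unirradiated) against mean normalised level (log scale) for all tested genes in IM, TAM and CD8; dark grey points have an adjusted p below 0.05, and coloured circles are the 6 genes, filled where called. The 6 genes lie in the upper part of the IM cloud, Clic5, Inpp5j and Sectm1a in that of TAM, and 4 of the 6 lie at the left end of the CD8 panel.

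Differences between treatments were tested within TAM and within CD8 by a normal test on the deposited statistics, adjusted over every gene by the Benjamini-Hochberg method. None of the 6 genes was called in any of the 8 differences, each with an adjusted p above 0.99. Few genes were: over all 32384 genes in TAM, 0.00309% were called for combination minus SBRT, 0.0803% for combination minus IL-12, 0.0926% for SBRT minus IL-12 and 0.0154% for the combination minus both single effects. The shares in CD8, over 33229 genes, were 0.0903%, 0.00903%, 0.0301% and 0.00301% in the same order. In CD8 an unadjusted p below 0.05 was reached by 1 gene in combination minus SBRT, Rmi2 (0.53 ± 0.24), and by 1 in SBRT minus IL-12, Sectm1a (0.61 ± 0.31). In TAM no unadjusted p was below 0.05, and the combination values of the 3 genes that rose lay below the sum of the single ones, by -0.68 ± 0.42 for Clic5, -0.60 ± 0.33 for Sectm1a and -0.50 ± 0.40 for Inpp5j.

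The responses of TAM and CD8 were then set side by side, with the populations taken as independent. The labels do not say whether their libraries share tumours. Apart from Selm and Rmi2, the other 4 genes had low CD8 levels, at which a change is easily missed. A difference from TAM in them can then follow from the TAM value alone. Sectm1a, 1 of these 4, had a difference of -0.02 ± 0.29 after SBRT, from log2 fold changes of 0.63 in TAM and 0.73 in CD8. The part of macrophage RNA in that CD8 value was not tested. After the combination, where 2.44% of 29788 genes were called, Rmi2 had a TAM minus CD8 difference of -0.82 ± 0.30 (adjusted p = 0.14) and Selm one of 0.28 ± 0.32 on the log2 scale. Clic5 passed the threshold (1.28 ± 0.31, adjusted p = 0.0031), but its CD8 level was 21.1, without an adjusted p there, so this does not show that Clic5 responded less in CD8; the call was lost when genes under a level of 50 were left out. Inpp5j had 0.94 ± 0.29 (adjusted p = 0.054) with the same limit. After IL-12, where 0.208% of genes were called, Selm had 0.26 ± 0.32 and Rmi2 -0.16 ± 0.30, and after SBRT, where 0.648% were called, they had 0.07 ± 0.32 and -0.27 ± 0.30.

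Around Inpp5j and Selm, neighbouring genes moved in part with them. Pla2g3, a secreted phospholipase gene, overlaps Inpp5j on the other strand and shares 401 exon bases with it, and the library kit does not mark strand, so reads in the shared bases cannot be assigned to either gene. Pla2g3 rose in IM after the combination (log2 1.01, adjusted p = 2.9e-04), at a mean level of 40.4 against 1822 for Inpp5j. It was not called in IM after the single treatments or in TAM. In CD8, at a level of 7.66, it had no adjusted p. Smtn, a gene of a cytoskeletal protein of smooth muscle that ends 171 bases beyond the end of Selm, rose after the combination in IM (0.90, adjusted p = 0.0012) and in CD8 (0.95, adjusted p = 9.0e-06). In TAM Smtn had 0.09 (adjusted p = 0.96). Rnf185, further out, was not called in any table. In TAM, then, Inpp5j rose after the combination while Selm, Pla2g3 and Smtn were not called, and in CD8 Smtn rose while Selm was not called.

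Around Rmi2, Socs1 and Prm1 rose in both myeloid populations. Socs1, the feedback inhibitor of cytokine receptor signalling whose promoter stretch is printed above, starts 49.5 kb before Rmi2. It rose in IM after SBRT (log2 0.63, adjusted p = 0.011), IL-12 (0.53, adjusted p = 0.020) and the combination (1.10, adjusted p = 5.9e-11), and in TAM after SBRT (0.63, adjusted p = 0.035), IL-12 (0.63, adjusted p = 0.028) and the combination (0.89, adjusted p = 2.0e-04). Prm1, known as a protamine gene of sperm, lies between them and had a mean level of 233 in IM. It rose in IM by 0.73 after SBRT, 1.18 after IL-12 and 1.80 after the combination, and in TAM by 1.02, 0.87 and 1.14, with adjusted p between 1.0e-13 and 0.042. The gene Gm46563, which has no value in these data, lies partly over Prm1 on the other strand. Exon bases shared with Prm1 were not examined, so reads from Gm46563 may be counted as Prm1. Rmi2 itself, between -0.17 and 0.14 in TAM, was not called there. The pseudogene CT010583.1, which has no value in these data, overlaps Rmi2 on the other strand and shares 121 exon bases with it. As for Inpp5j, reads in the shared bases cannot be assigned to either gene. Tnp2, next to Socs1, rose only in IM after the combination (1.18, adjusted p = 1.6e-05), at a level of 49.9.

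The other 3 genes had fewer called neighbours. No annotated gene lies within 50 kb of Clic5. Near Itpka, the genes Rtf1, Rpap1, Ltk and Tyro3 were not called in any of the 9 tables. Near Sectm1a, Cd7 lies beyond Sectm1b. Cd7, which encodes the receptor that human SECTM1 binds, fell in IM after the combination (log2 -1.02 ± 0.21, adjusted p = 8.0e-05) at a mean level of 56.1, was not called in TAM, and stood at 3059 in CD8 without a call.

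**Figure D4:**
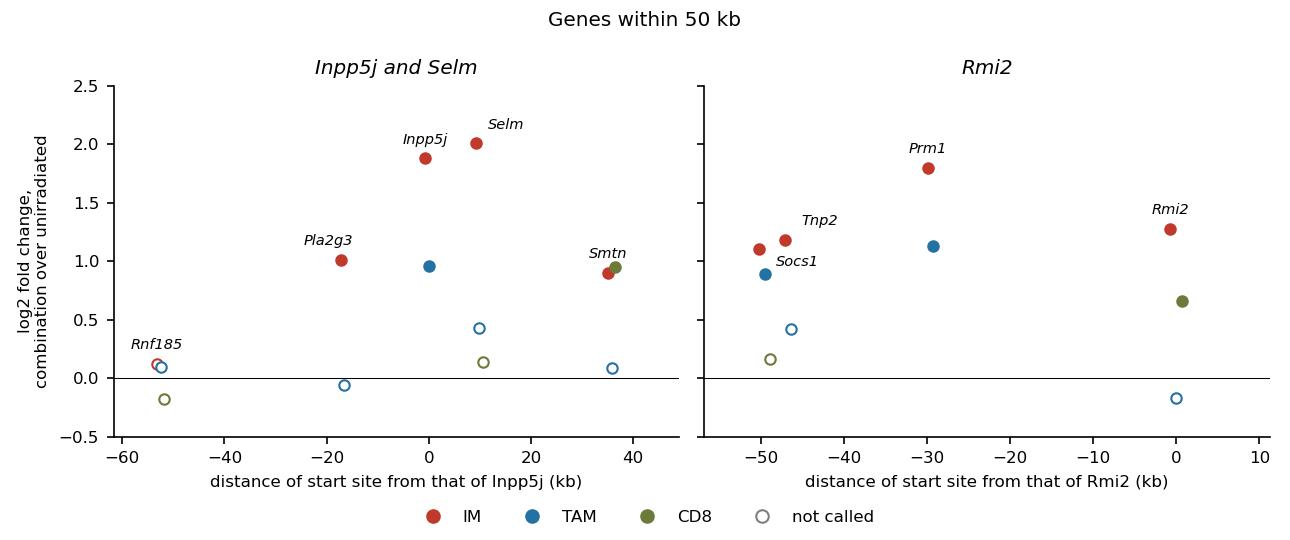
Log2 fold change (combination over unirradiated) of genes within 50 kb, against the distance of their start site from that of Inpp5j (left) or Rmi2 (right), for genes with an adjusted p; colours mark IM, TAM and CD8, filled circles an adjusted p below 0.05, names stand at the IM points, and points of 1 gene are shifted slightly sideways by population. At the left, Pla2g3, Inpp5j, Selm and Smtn are filled in IM but Inpp5j alone in TAM; at the right, Socs1 and Prm1 are filled in IM and TAM while Rmi2 is filled in IM and CD8.

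Relatives of the 6 genes were set beside them. The 6 genes were picked for large increases in IM, so a higher place than their relatives there is no result. The lists hold 62 genes present in the tables, and they were drawn up with results of these data known. In IM after the combination 3 of the 55 tested relatives rose and 3 fell, where 6.72% of all tested genes were called in either direction, and their median log2 fold change was -0.0081, against -0.015 over all tested genes. After SBRT none of 55 relatives was called in IM by the authors' DESeq2 test, with 3 at an unadjusted p below 0.05, where 0.519% of all genes were called. After IL-12, 1 rose and 1 fell in IM, where 3.24% of all genes were called.

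By family, the chloride intracellular channel genes Clic1, Clic3 and Clic4 lay between 0.09 and 0.26 in IM after the combination, and none was called in any table. Of 10 phosphoinositide 5-phosphatase genes related to Inpp5j, Inpp5b rose in IM after the combination (log2 0.59 ± 0.15, adjusted p = 0.0021), with a list median of -0.13. Itpkb and Itpkc, the paralogues of Itpka, had -0.044 ± 0.16 and -0.019 ± 0.20 there. Among the inositol trisphosphate receptors, the calcium channels that the substrate of Itpka opens, Itpr3 rose (0.67) and Itpr2 fell (-0.64). Of 17 tested selenoprotein genes beside Selm, only Sepp1, which encodes the secreted selenium carrier of plasma, was called in IM after the combination, and it fell (-0.73). Of 12 partners of Rmi2, only Fanca, a gene of the Fanconi anaemia DNA repair complex, rose in IM, by 0.93 after IL-12 and by 0.93 after the combination.

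In TAM the number of relatives called was 1 of 56 after SBRT (2.08% of all genes), 1 of 57 after IL-12 (0.935%) and 3 of 56 after the combination (4.21%). Gpx3, a glutathione peroxidase gene, fell in TAM after SBRT (log2 -1.01) and after the combination (-0.71). In CD8 it was 0 of 54 after SBRT by the authors' DESeq2 test (0.471% of all genes), with 6 at an unadjusted p below 0.05. It was 2 of 53 after IL-12 (2.52%) and 6 of 54 after the combination (7.47%). Of those 6, Blm and Rpa2 rose and 4 fell. For scale, all 17 listed interferon GTPase genes, a list that leaves out Gbp11, rose in IM after the combination, with a median log2 fold change of 0.92 and a highest value of 1.87 (Gbp2b), and 14 rose in TAM with a median of 0.69. In CD8 after the combination 1 of the 17 rose.

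**Figure D5:**
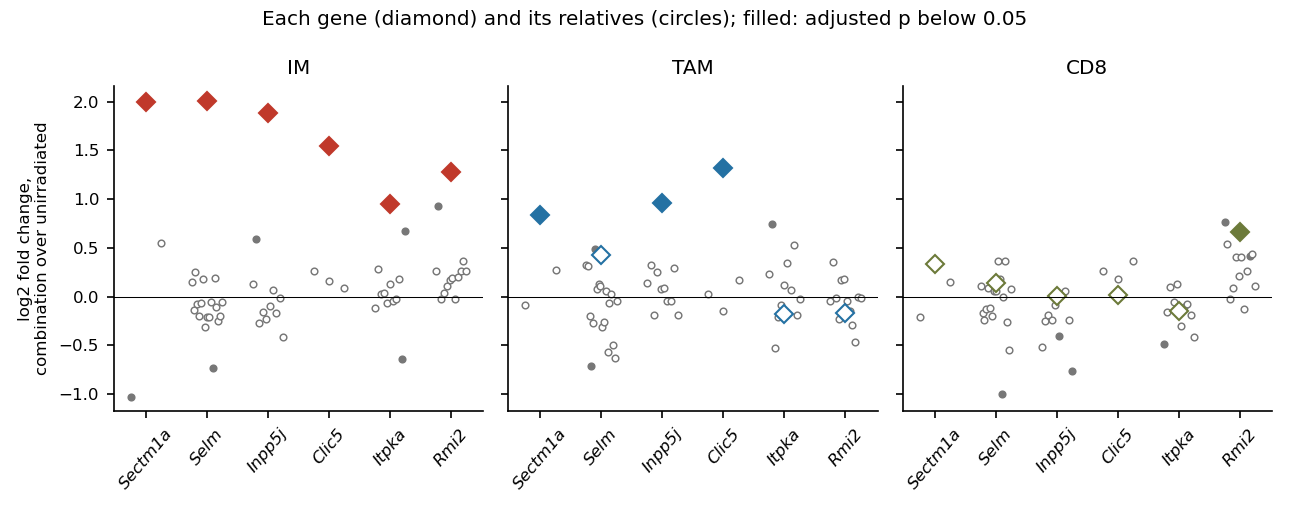
Log2 fold change (combination over unirradiated) of each of the 6 genes (coloured diamonds) and of its tested relatives (grey circles) in IM, TAM and CD8; filled marks have an adjusted p below 0.05. In IM each diamond lies above every circle of its column, which the choice of the 6 genes for large increases in IM favours by itself. In TAM those of Sectm1a, Inpp5j and Clic5 do, and in CD8 the Rmi2 diamond lies just under the circle of Blm.

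The genes whose fold changes over the tables were closest to those of each member were found by the root mean square difference of log2 fold change, over the tables in which the member had an adjusted p. These tables share control libraries and include the IM values that chose the members, so genes high in IM are near by construction and the likeness is a description only. Over 7 tables, Sectm1a was closest to Il12rb1 (difference 0.17), Gbp2b (0.20) and Ly6a (0.22). Inpp5j was closest to Slco3a1 (0.14), Gbp11 (0.17) and Gbp4 (0.18), and Clic5 to Gbp11 (0.20), Gbp4 (0.22) and Cnn3 (0.28), also over 7 tables. Over all 9 tables Selm was closest to Iigp1 (0.18), AC102225.2 (0.20) and Pla2g16 (0.23). Itpka, over 6 tables, was closest to Gatm (0.21), Ufsp1 (0.24) and Gbgt1 (0.25), and Rmi2, over 9 tables, to Tmem171 (0.26), Ccdc102a (0.29) and Tnfsf13b (0.31).

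Genes that mark the sorted state moved in the same libraries. In IM after the combination 3 of 9 monocyte identity genes rose (Ly6c2, Ly6c1 and Plac8) and 4 fell, among them Vcan (log2 -1.23) and F13a1 (-1.03). Of 8 macrophage identity genes in IM, C1qa, C1qb and C1qc rose and Mrc1 fell (-0.99). In TAM after the combination Plac8 (1.34) and Ly6c1 (0.92) rose, and F13a1 (-0.98) and Mrc1 (-0.78) fell. Of 10 dendritic cell markers in IM after the combination, Clec9a (0.73) and Batf3 (0.58) rose, and Cd209a (-2.31) and Flt3 (-1.46) fell, with a list median of 0.21. Klrk1 was the single gene of 10 natural killer cell markers that rose (1.62 in IM, 0.93 in TAM). None of the 10 T-cell markers was called in IM after any treatment by the authors' DESeq2 test, with 2, 0 and 1 at an unadjusted p below 0.05 in the 3 tables; their summed level was 1880 there, against 268832 in CD8. In TAM 11 of 18 cell-cycle genes fell after the combination (median -0.79) and 12 of 18 after SBRT. The part of these shifts in the results for the 6 genes was not tested, and in sorted bulk RNA fewer cells of a type and less RNA per cell cannot be told apart.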

How the data were processed

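RNA from 33 libraries in 12 groups was made into TruSeq RNA V2 libraries, a kit that does not mark strand, and run on an Illumina HiSeq instrument, per the labels' protocols. The build GRCm38 and the tools STAR 2.6.0c, Trimmomatic 0.36, Salmon, featureCounts, Subread and FastQC 0.11.8 are named in the submitters' processing notes; their roles are not given in the sources used here. The 9 tables deposited by the authors are, per the file headers, DESeq2 results. Their level, per the file headers, is a normalised signal averaged over libraries (DESeq2's base mean), equal in the 3 tables of a population. The log2 fold changes deposited by the authors are treated over unirradiated and shrunken, since their ratio to the statistic falls at low levels, so they understate changes of low genes. The authors' Wald statistic, a score, has the deposited p-value as its normal probability. The authors' adjusted p-values cover 13876 to 19273 genes per table, after a filter on level.

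Standard errors are the ratio of fold change to statistic. Differences within TAM and CD8, and TAM minus CD8, were taken from the statistics, each multiplied by the gene's median standard error over the 3 tables of a population, tested against the normal distribution, with p-values adjusted by Benjamini-Hochberg over every gene that had a p; within a population the covariance from common controls was ignored, so those tests are conservative. The procedure was run on simulated data with normal, unshrunken effects and known standard errors. Such a run does not show how it behaves for genes of low level, whose deposited fold changes are shrunken. Python 3.11.15, numpy 2.4.6, pandas 2.3.3 and scipy 1.17.1 were used. Of the 53735 names, 28796 matched GENCODE M21. Named genes were the 6 members, their listed relatives, genes within 50 kb, the 3 genes closest in fold change and those next in order in IM after the combination. The members, lists and tests were chosen with earlier results of these data known. The alternatives were other thresholds, filters, null spreads and standard errors, and another promoter window.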

Additional observations from a re-analysis of the deposited data

Results flagged for a closer look

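Clic5 is listed because its TAM minus CD8 difference after the combination passed the threshold of the test. Its low CD8 level makes a change there hard to detect. The log2 difference, TAM minus CD8, was 1.28 ± 0.31 (adjusted p = 0.0031, normal test with Benjamini-Hochberg adjustment over 29788 genes), from deposited fold changes of 1.32 in TAM and 0.020 in CD8. Clic5 had a mean level of 723 in TAM and 21.1 in CD8, where the lowest level with an adjusted p was 33.1, so the CD8 value is of a gene near the limit of detection and its deposited fold change is shrunken toward 0. The difference can then follow from the rise in TAM alone and does not show a weaker response in CD8, and it was not called with a level of at least 50. The differences after SBRT (0.95 ± 0.31, adjusted p = 0.17) and IL-12 (1.06 ± 0.31, adjusted p = 0.12) were not called.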

How the results depend on the processing

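The counts of called members that moved by more than 1.5 times were 6. The others include counts of 0 and counts in IM, where the genes were chosen, and say nothing about stability. In TAM after SBRT the count of 2 fell to 1 at an adjusted p below 0.01, without a filter on level and with the spread of the statistics taken from the data. In TAM after IL-12 the count of 3 fell to 1 at 0.01, with Inpp5j and Clic5 lost. In CD8 after the combination the count of 1 fell to 0 with the spread taken from the data, and for TAM minus CD8 after the combination 1 fell to 0 with a level of at least 50. In IM after SBRT, Selm had an adjusted p of 0.029, above 0.01, and 0.0501 without the filter. With each table's own standard error, which replaces the shared one, 2 differences changed sign, both close to 0: Inpp5j in CD8 for the combination minus both single effects (-0.060, against 0.011) and Itpka for TAM minus CD8 after the combination (-0.032, against 0.014). For the other changes the cause was not tested. Removing the control variance called none of the 6 genes in the 8 differences within TAM and CD8. The calls over all genes moved by more than 1.5 times at 0.01 in all 9 tables, in 1 table without the filter, and in 6 with the spread taken from the data, namely IM after IL-12 (356 for 546), CD8 after IL-12 (24 for 349), IM after the combination (484 for 1254), TAM after the combination (329 for 725), CD8 after the combination (207 for 1129) and CD8 after SBRT (1 for 77, and 40 without the filter). No paired analysis was possible because the tables hold no value per library; for the same reason leaving out each replicate and a count test with edgeR were not run. Mean levels of 14.8 to 31.5 limit what could be detected for 4 of the 6 genes in CD8.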
